A study of Mus musculus with 20 samples.

Results

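The 10 livers described here are those of all mice labelled KO, 10 of the 20 mice in the series, and were chosen by that label alone. They came from male mice of the strain named LiB12cKO, 8 weeks old, with the genotype HSD17B12lox/lox;Alb-CreCre/WT. The other 10 mice, labelled WT, had the genotype HSD17B12lox/lox;Alb-CreWT/WT and serve here only as a measure of spread and level. Both groups therefore carried the floxed alleles, and only the KO mice carried Cre, so Cre and loss of the gene cannot be told apart. Cre was driven by a promoter of hepatocytes, that of albumin, and which liver cells lost the gene was not measured here. Total RNA of the left lateral lobe was sequenced, 1 library per mouse, and the labels name no litter, cage, date or batch. The comparison asked how far livers of 1 genotype differ from each other, which genes and gene programmes vary together among them, and how much of this rests on KO_391. That mouse was set apart before these comparisons as the intermediate animal of the group.

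The product of Hsd17b12 is an enzyme of the endoplasmic reticulum that reduces 3-ketoacyl-CoA in the elongation of long-chain and very-long-chain fatty acids. Liver RNA is dominated by hepatocytes, whose genes depend on sex-specific growth hormone pulses (major urinary proteins and male-biased cytochromes), on the position of the cell between portal and central vein, on feeding and time of day (lipogenesis, clock genes) and on stress pathways. The integrated stress response raises the transcription factor ATF4, which turns on genes of amino acid supply such as Asns and Slc7a11 and the hormone gene Fgf21. Resident Kupffer cells and recruited macrophages contribute macrophage transcripts, and dividing cells contribute those of the cell cycle. In bulk RNA, fewer cells of a type and less RNA per cell cannot be told apart.

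Between 16693195 (KO_435) and 24895938 (KO_404) fragments were assigned to genes per KO mouse. Values below are the normalized values of the authors, which are counts scaled to the effective library size (CPM). The SD of a gene or list is taken over mice on the scale log2(value + 0.5). Of 20914 genes, 12742 had a mean value of at least 1 among KO mice and entered. The counts of every pair of KO mice differed by more than sampling noise, with a chi-square per degree of freedom of 16.9 to 209 over 45 pairs. KO_391 had the largest shares of multi-mapping fragments, 8.46% against a median of 2.83%, and of fragments from major urinary protein genes, 7.63% against a median of 1.74%. Its share of properly paired fragments was the lowest, 70.2%, next to 70.7% in KO_372. The part of these measures in the results on KO_391 was not tested.

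Hsd17b12 itself (Entrez gene 56348; mm10 chromosome 2, 94032697 to 94157909, minus strand, 11 exon blocks) was among the least variable genes of the KO livers. Its normalized value was 44.0 in KO_416 at the lowest, 47.9 at the median and 51.3 in KO_372 at the highest, with a mean of 47.9 ± 2.48 (SD, n = 10). KO_391, at 50.9, lay within the range of the other 9 mice, and all 10 lay below the WT range of 123 to 177. Its SD was 0.07 on the log2 scale, which put it at rank 12429 of 12742 from the most variable gene down. The counts cover the whole gene and not the floxed part alone, so they do not give the share of recombined cells.

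The spread of most genes was small. The median SD was 0.20 over all 10 mice, 0.19 without KO_391 and 0.22 among the WT mice for the same genes. An SD of at least 1, a 2-fold change per SD, was reached by 131 of 12742 genes (1.03%) among KO mice and by 97 (0.761%) without KO_391. Of the 131 genes, 90 were among the 97. The WT mice had 107 genes past the same limit, and 43 of the 131 were among them. Just inside the limit were Foxq1 (1.003), Gucy2c (1.002) and Ptprn (1.002), and just outside it Neurl1a (0.9995), Ccnb2 (0.9992) and Gadd45a (0.995). KO_391 was the highest for 40 and the lowest for 48 of the 131 genes. KO_416 was the highest for 28 and the lowest for 8, and KO_434 the highest for 28 and the lowest for 26. The other 7 mice together held the remaining extremes, with 16 highest values in KO_414 as their largest number.

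**Figure D1:**
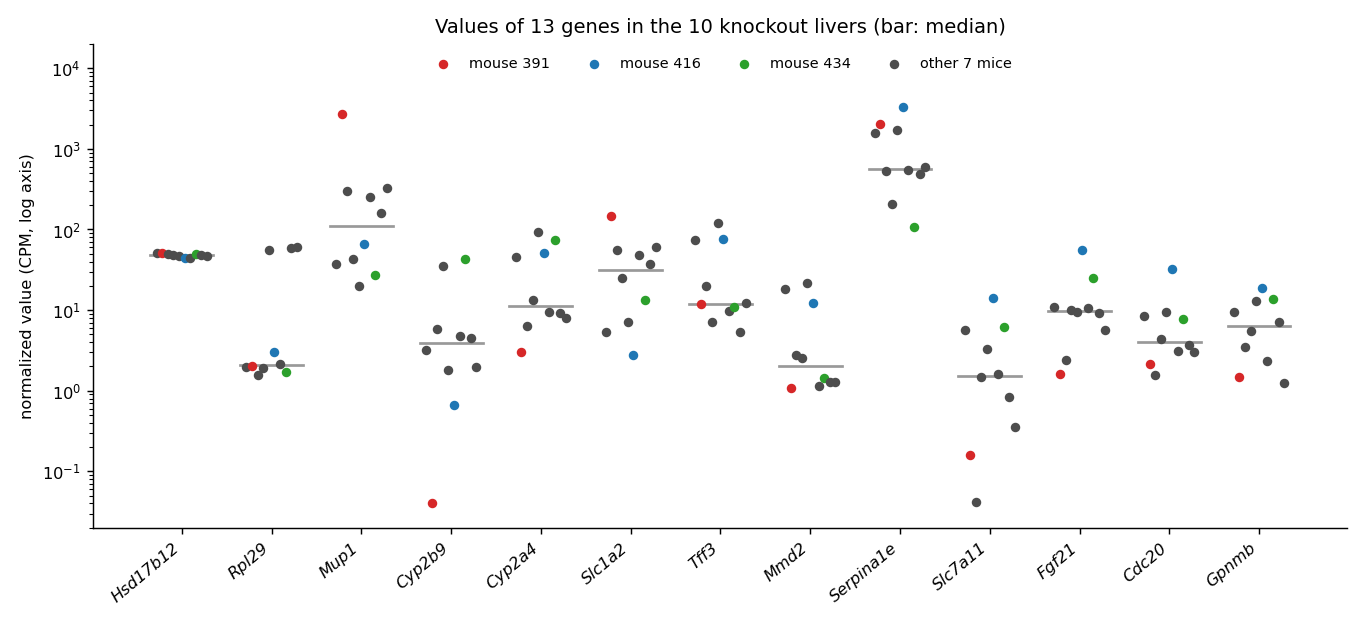
Normalized values (CPM, log axis) of 13 genes in the 10 knockout livers, 1 point per mouse, with KO_391 in red, KO_416 in blue, KO_434 in green and a grey bar at the median. Hsd17b12 stays between 44.0 and 51.3, Rpl29 falls into separate sets at 1.56 to 3.02 and 55.6 to 61.1, and KO_391 is the highest for Mup1 and Slc1a2 and the lowest for Cyp2b9, Cyp2a4 and Fgf21.

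Rpl29, which encodes a protein of the large ribosomal subunit, had the largest SD of all genes, 2.21 with KO_391 and 2.28 without it. Its value was 55.6 in KO_414, 59.2 in KO_435 and 61.1 in KO_453, and 1.56 to 3.02 in the other 7 mice. No KO mouse lay between these levels. The WT mice showed the same arrangement, with 4 mice at 59.3 to 63.1 and 6 at 1.03 to 2.45. Ribosomal protein genes have near-identical processed copies elsewhere in the genome, and multi-mapping fragments were counted, so the level of this gene is uncertain. The cause of the separate levels in both groups was not tested.

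Most of the next genes by SD were major urinary proteins (Mup), lipocalins that male mice secrete from the liver into urine under the control of growth hormone. Of 20 Mup genes that entered, 18 had an SD of at least 1, and 16 did without KO_391. Their median SD was 1.62, 1.20 without KO_391 and 1.26 among WT mice. Mup1 had 19.9 in KO_414, 112 at the median and 2688 in KO_391. Without KO_391 its highest value was 331, in KO_453, and its SD went from 2.16 to 1.57. Mup7 had 17.4 in KO_434, 99.1 at the median and 2933 in KO_391. Mup17 had 22.0 in KO_414, 85.5 at the median and 2671 in KO_391. The same mouse was the highest for each of these genes, and the lowest was KO_414 or KO_434. Mup20, which encodes the pheromone darcin, had 2661 in KO_434, 5968 at the median and 13359 in KO_391, with an SD of only 0.63. Mup3 had an SD of 0.84. The summed Mup level was 4567 at the lowest, 14301 at the median and 73534 in KO_391, against 23050 to 211377 in WT mice. Mup genes are near-identical copies and fragments that match several were counted, so values of single Mup genes are uncertain and the sum is the firmer measure.

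Genes that differ between male and female livers were also among the most variable. Hsd3b5, a male-biased steroid dehydrogenase, had 0 in KO_434, 0.898 at the median and 21.1 in KO_391, with 10.3 in KO_453 as the next value. Selenbp2, a male-biased selenium-binding protein, had 83.3 in KO_434, 211 at the median and 1460 in KO_391. Serpina1e, a male-biased antitrypsin whose paralogs are near-identical, had 107 in KO_434, 570 at the median and 3317 in KO_416. KO_391 was thus not the highest for Serpina1e: KO_416 and KO_391 (2053) led, followed by KO_414 and KO_372. Of the female-biased genes, Cyp2b9 had 0.04 in KO_391, 3.87 at the median and 42.6 in KO_434, with 35.7 in KO_404. Cyp2a4 had 3.00 in KO_391, 11.4 at the median and 93.3 in KO_414, with 74.1 in KO_434. These are cytochromes P450 of steroid and drug metabolism. Both were lowest in KO_391, whose male-biased list was the highest at 8.26 (mean log2 level of 15 genes) against 5.64 to 7.37 in the other 9 mice.

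Several genes were high in a few mice that did not include KO_391. Tff3, a trefoil peptide of mucus-producing epithelium, had 122 in KO_414, 76.6 in KO_416 and 74.7 in KO_372, and 5.36 to 19.7 in the other 7. Mmd2, a membrane protein gene, had 21.6, 12.3 and 18.1 in those 3 mice and 1.08 to 2.74 in the others. These 3 mice were the highest for 11 of the 131 variable genes. Ddit4, an inhibitor of mTOR signalling that responds to stress and fasting, had 239 in KO_434, 163 in KO_435 and a lowest value of 13.3 in KO_404. Of the genes in this paragraph only Ddit4 had a larger SD in WT mice (1.71) than in KO mice (1.29). Cldn4, a tight junction gene, had 0.20 in KO_391, 2.47 at the median and 15.8 in KO_434. Krt20, an epithelial keratin, reached 6.91 in KO_434 and 6.16 in KO_372 and was 0 in KO_391. Cdh17, an intestinal cadherin, lay between 2.10 and 5.04 in KO_372, KO_414, KO_416, KO_434 and KO_435 and between 0.04 and 0.422 in the others.

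With KO_391 left out, other genes came among the most variable. Acot3, an acyl-CoA thioesterase induced by PPAR-alpha, had 1.22 in KO_402, 9.53 at the median and 54.0 in KO_416. Lpin1, a phosphatidate phosphatase of triglyceride synthesis, had 51.3 in KO_404, 189 at the median and 644 in KO_402. Socs2, an inhibitor of growth hormone signalling, had 3.54 in KO_372, 28.01 at the median and 79.3 in KO_435. Ppp1r3g, a glycogen-targeting subunit of a phosphatase, had 3.10 in KO_416, 22.0 at the median and 65.3 in KO_434. Scara5, a ferritin receptor, had 0.569 in KO_404, 5.76 at the median and 26.4 in KO_402. Slc15a2, a peptide transporter, had 0.135 in KO_414, 2.70 at the median and 10.2 in KO_434. Ntrk2, a neurotrophin receptor, had 0.44 in KO_391, 1.07 at the median and 17.995 in KO_414. The highest mouse was KO_402, KO_414, KO_416, KO_434 or KO_435, depending on the gene. Lpin1 and Ppp1r3g had larger SDs among WT mice (1.53 and 1.44) than among KO mice (1.35 and 1.39). The other genes of this paragraph had smaller SDs among WT mice.

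The median SD of the genes of the lipogenesis list (20 genes) was 0.41, against 0.20 over all genes. Among WT mice the median SD of the same list was larger, 0.50. Its mean log2 level was 7.08 in KO_391, 7.64 at the median and 7.98 in KO_434, and KO_416 was the next lowest at 7.16. Of its genes 2 of 20 had an SD of at least 1. Scd2, a stearoyl-CoA desaturase, had 13.3 in KO_391, 43.0 at the median and 213 in KO_414, with 174 in KO_372. Elovl7, a fatty acid elongase, had 1.32 in KO_391 and 6.11 to 24.8 in the other 9 mice, and its SD of 1.04 became 0.56 without KO_391. Pnpla3, a lipid droplet acyltransferase and lipase, had 1.00 in KO_391, 4.68 at the median and 10.2 in KO_425. Scd1, the main liver desaturase, had 11283 in KO_391, 21323 at the median and 24990 in KO_425, with an SD of 0.35. Fasn, the fatty acid synthase, had 268 in KO_416, 687 at the median and 942 in KO_425. KO_391 and KO_416 were the lowest for both Scd1 and Fasn.

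The median gene SD was 0.27 for PPAR-alpha targets, 0.25 for the lipid droplet and triglyceride list and 0.38 for cholesterol synthesis. Among WT mice the values were 0.39, 0.36 and 0.32. The PPAR-alpha target list (24 genes) ranged from 7.80 to 8.43 and the lipid droplet and triglyceride list (18 genes) from 5.77 to 6.26. KO_391 lay within the range of the other 9 mice in both. Pdk4, a pyruvate dehydrogenase kinase of the fasted liver, had 11.6 in KO_391, 64.6 at the median and 112 in KO_434. KO_402 (13.2) and KO_453 (17.4) were nearly as low as KO_391. Mogat1, a monoacylglycerol acyltransferase, had 1.09 in KO_416, 7.96 at the median and 10.2 in KO_425, and KO_372 and KO_414 were low as well. Fitm1, a lipid droplet protein, was lowest in the same 3 mice, at 6.90 to 11.4, and 16.2 to 38.7 in the others. The cholesterol synthesis list (21 genes) had 5.73 in KO_416, 6.47 at the median and 6.82 in KO_434. Its most variable genes, Sqle, Hmgcs1 and Mvd, had SDs of 0.60, 0.55 and 0.55.

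The macrophage list (27 genes) had 3.31 in KO_391, 3.89 at the median and 4.41 in KO_416, with 4.39 in KO_434. Of its genes 2 of 27 had an SD of at least 1, with KO_391 and without it. The median SD of its genes was 0.38, and 0.37 among WT mice. Gpnmb, a glycoprotein of lipid-laden macrophages, had 1.26 in KO_453, 6.34 at the median and 18.7 in KO_416. Lgals3, the lectin galectin-3, had 5.48 in KO_391, 21.0 at the median and 64.5 in KO_416. Mmp12, the macrophage elastase, had 4.12 in KO_391, 10.9 at the median and 24.4 in KO_416. Clec4f, which marks Kupffer cells, had 72.1 in KO_372, 91.9 at the median and 148 in KO_434, and Adgre1 (F4/80) had 8.78 in KO_453, 14.9 at the median and 22.7 in KO_434. The highest mouse differed between these sets: KO_416 for Gpnmb, Lgals3 and Mmp12, KO_434 for Clec4f and Adgre1. Of the markers of other cells, the erythroid list (4 genes) ranged from 3.89 in KO_434 to 5.75 in KO_372, a wider range than that of the macrophage list. The stellate and fibroblast list (8 genes) had 4.29 in KO_391, 4.81 at the median and 5.24 in KO_416, so its lowest and highest mice were those of the macrophage list, and its part in the macrophage values was not tested. Summed cholangiocyte genes ranged from 50.5 to 190. T cell, B cell and neutrophil lists had 1 entered gene each, and pancreatic acinar and adipocyte genes none. The sinusoidal endothelial list ranged from 4.69 to 5.12 and the hepatocyte identity list from 10.13 to 10.46. Alb, the albumin gene and a defining marker of hepatocytes, had 26156 in KO_391, 36299 at the median and 42784 in KO_372.

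The cell cycle list (34 genes) was the most uneven programme after the Mup genes. Its level was 1.33 in KO_391, 1.99 at the median and 3.63 in KO_416. KO_414 (2.59), KO_372 (2.50) and KO_434 (2.50) followed KO_416, and KO_402 (1.43) was close to KO_391. An SD of at least 1 was reached by 7 of 34 genes, and by 8 without KO_391. The median SD of the list's genes was 0.82 among KO mice and 0.39 among WT mice. Cdc20, an activator of the anaphase-promoting complex whose exons overlap those of Elovl1, had 1.56 in KO_402, 4.03 at the median and 32.8 in KO_416. Plk1, a mitotic kinase, had 0.68 in KO_391, 1.86 at the median and 15.1 in KO_416. Ube2c, the ubiquitin-conjugating enzyme of that complex, had 1.12 in KO_391, 3.87 at the median and 18.2 in KO_416. Mki67, the antigen of proliferating cells, had 3.50 in KO_402, 7.07 at the median and 38.5 in KO_416. KO_416 was the highest for each of the 4, by at least 2 times the next mouse.

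The integrated stress response list (25 genes) had 3.10 in KO_391, 3.68 in KO_402, 4.31 at the median, 4.87 in KO_434 and 4.88 in KO_416. An SD of at least 1 was reached by 6 of 25 genes, and by 3 without KO_391. The median SD of the list's genes was 0.66, 0.46 without KO_391 and 0.42 among WT mice. Slc7a11, the cystine importer, had 0.0422 in KO_402, 1.54 at the median and 13.99 in KO_416. Atf3, a stress-induced transcription factor, had 1.52 in KO_391, 11.2 at the median and 53.4 in KO_416. Fgf21, a liver hormone, had 1.60 in KO_391, 9.74 at the median and 56.4 in KO_416. KO_416 was the highest and KO_391 and KO_402 the lowest for all 3. Ddit3 (CHOP), another target of ATF4, had 3.801 in KO_391, 11.6 at the median and 25.004 in KO_416.

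Promoters of 2 variable genes of each programme are shown to make the motifs visible that were searched in both lists. The genes were chosen from those with a match. Plk1 and Atf3, whose SDs were above those of Ube2c and Fgf21, have a match too and are not printed, while Ccnb1 and Psat1 are variable members with none. The sequences are RefSeq promoters of build GRCm38.p6, from 250 bases before to 50 bases after the gene start, read 5′ to 3′ along the gene, with motif matches in capitals. The cell cycle homology region was searched as TTTGAA on both strands, and the core of the amino acid response element, at which ATF4 binds with partner proteins, as TGATGNAA on both strands. Neither motif can overlap itself by more than a few bases, and overlaps between the motifs were not counted.
Cdc20: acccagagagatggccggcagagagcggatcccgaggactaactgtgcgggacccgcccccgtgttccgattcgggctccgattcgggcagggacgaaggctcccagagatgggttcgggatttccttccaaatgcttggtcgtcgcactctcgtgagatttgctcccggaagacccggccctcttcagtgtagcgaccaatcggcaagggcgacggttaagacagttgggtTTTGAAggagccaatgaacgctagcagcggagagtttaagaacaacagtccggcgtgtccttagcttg
Ube2c: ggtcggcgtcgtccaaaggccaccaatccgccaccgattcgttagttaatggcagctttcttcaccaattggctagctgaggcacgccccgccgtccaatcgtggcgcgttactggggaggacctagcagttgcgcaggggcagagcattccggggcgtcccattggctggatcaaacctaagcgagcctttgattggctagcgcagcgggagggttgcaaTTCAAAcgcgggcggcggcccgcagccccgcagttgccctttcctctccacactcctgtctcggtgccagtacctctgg
Slc7a11: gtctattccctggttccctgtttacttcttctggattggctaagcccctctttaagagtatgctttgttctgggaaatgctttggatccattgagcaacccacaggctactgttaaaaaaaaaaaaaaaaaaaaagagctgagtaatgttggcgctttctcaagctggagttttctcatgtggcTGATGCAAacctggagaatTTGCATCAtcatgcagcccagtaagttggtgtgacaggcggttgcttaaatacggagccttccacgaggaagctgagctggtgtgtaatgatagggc
Fgf21: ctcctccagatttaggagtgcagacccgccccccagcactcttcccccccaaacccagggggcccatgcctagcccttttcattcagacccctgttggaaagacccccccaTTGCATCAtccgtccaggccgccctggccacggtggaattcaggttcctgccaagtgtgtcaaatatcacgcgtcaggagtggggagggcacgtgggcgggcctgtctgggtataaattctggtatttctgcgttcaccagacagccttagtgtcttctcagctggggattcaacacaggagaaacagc
The Cdc20 promoter lies at chr4:118437294-118437593, minus strand, with its match starting 18 bases before the gene start (-18). That of Ube2c lies at chr2:164769679-164769978, plus strand, with the match on the other strand at -29. The Slc7a11 promoter, at chr3:50443564-50443863, minus strand, has 2 matches. The Fgf21 promoter, at chr7:45615441-45615740, minus strand, has 1 match at -139. TTTGAA was present in 15 of 28 cell cycle promoters that matched an entry, 53.6%, against 14.6% of the promoters of 9880 entered genes and 17.9% of all 32851 entries. TGATGNAA was present in 11 of 25 promoters of the stress response list, 44.0%, against 2.80% of entered genes and 3.97% of all entries. A match is a run of letters and was not tested for binding.

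**Figure D2:**
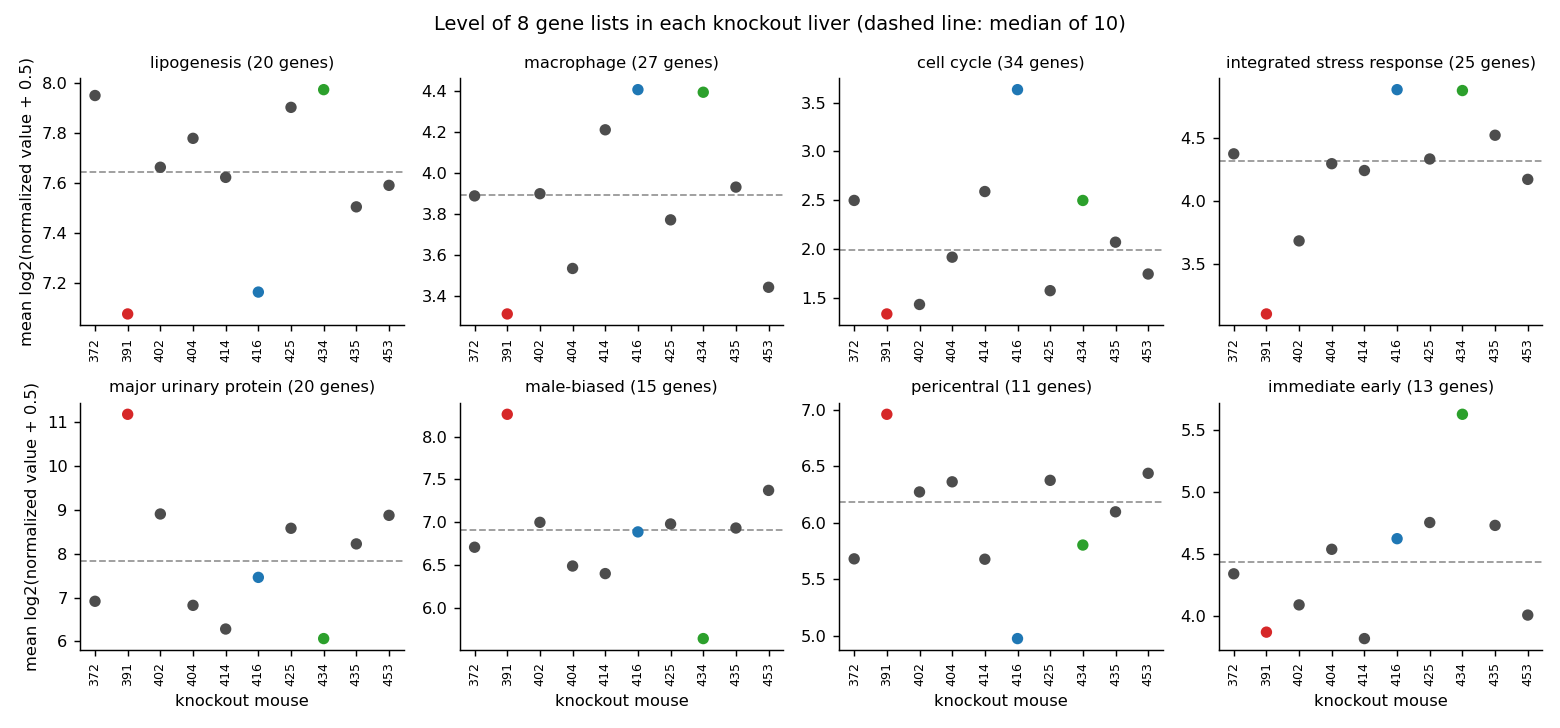
Mean log2(normalized value + 0.5) of 8 gene lists in each of the 10 knockout livers, 1 point per mouse, with KO_391 in red, KO_416 in blue, KO_434 in green and a dashed line at the median. KO_391 is the lowest for lipogenesis (7.08), macrophage (3.31), cell cycle (1.33) and integrated stress response (3.10) and the highest for major urinary protein (11.19), while KO_416 is the highest for cell cycle (3.63) and the lowest for pericentral genes (4.98).

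Genes that mark the zones of the liver lobule varied as well. The pericentral list (11 genes) had 4.98 in KO_416, 6.18 at the median and 6.96 in KO_391. Slc1a2, a glutamate transporter of the last hepatocytes before the central vein, had 2.75 in KO_416, 31.1 at the median and 145 in KO_391. KO_372 (5.32) and KO_414 (7.04) were the next lowest. Oat, ornithine aminotransferase, had 52.6 in KO_416, 198 at the median and 671 in KO_391. Glul, glutamine synthetase, had 112 in KO_416, 284 at the median and 658 in KO_391. The periportal list (10 genes) had 7.55 in KO_434, 8.27 at the median and 8.83 in KO_391. Sds, a serine dehydratase whose exons overlap those of Plbd2, had 117 in KO_404, 220 at the median and 476 in KO_372.

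The remaining lists added a few uneven genes. Immediate early genes, which follow acute stimuli and handling, had a list level of 5.62 in KO_434 and 3.82 to 4.75 in the other 9 mice. Their median SD was 0.75 among KO mice and 0.77 among WT mice. Egr1 had 149 in KO_434 and 8.27 to 46.2 in the others, and Fos had 21.4 there and 1.22 to 9.08 in the others. Myc was highest in KO_435 (75.0), followed by KO_434 (59.7). Of the clock genes, Dbp, whose exons overlap those of Sphk2, had 2.81 in KO_414, 8.65 at the median and 30.4 in KO_453. Among NRF2 targets, Gpx2, a glutathione peroxidase, had 7.32 in KO_391 and 18.6 to 47.9 in the others, and Gsta1, a glutathione transferase, had 7.40 in KO_391, 32.1 at the median and 84.2 in KO_414. Cdkn1a, the p53 target p21, had 15.2 in KO_391, 61.5 at the median and 91.8 in KO_402. Among acute phase genes, Orm3 had 1.16 in KO_416, 10.6 at the median and 24.3 in KO_402. Interferon response genes were even: Rsad2 had the largest SD of that list, 0.68. Egr1, Fos, Dbp, Cdkn1a and Orm3 had larger SDs among WT mice than among KO mice, and Myc, Gpx2, Gsta1 and Rsad2 smaller ones.

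Principal components of the 1000 most variable genes summarised these differences. The first component held 45.5% of their variance and the second 20.6%. KO_391 scored 35.3 on the first component and the other 9 mice -19.0 (KO_434) to 13.03 (KO_402). The genes with the largest loadings toward KO_391 were Mup genes and Slc1a2, and on the other side were Cyp2a4, Slc7a11, Cldn4 and Fgf21. On the second component KO_416 (20.4) and KO_434 (-15.8) lay at opposite ends, with Serpina1e, Tff3 and Mmd2 on the side of KO_416 and Cyp2b9 on that of KO_434. Without KO_391 the first component held 36.9% and ran from KO_416 (-23.1) to KO_402 (14.1). Slc1a2 and Mup1 again led 1 side, and Slc7a11 and Cyp2a4 the other, joined by Tff3, Mmd2, Cdc20 and Mki67. The second component, with 20.7%, set KO_434 (23.6) apart from KO_435 (4.35) and the rest, with Cyp2b9, Egr1 and Fos on its side.

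**Figure D3:**
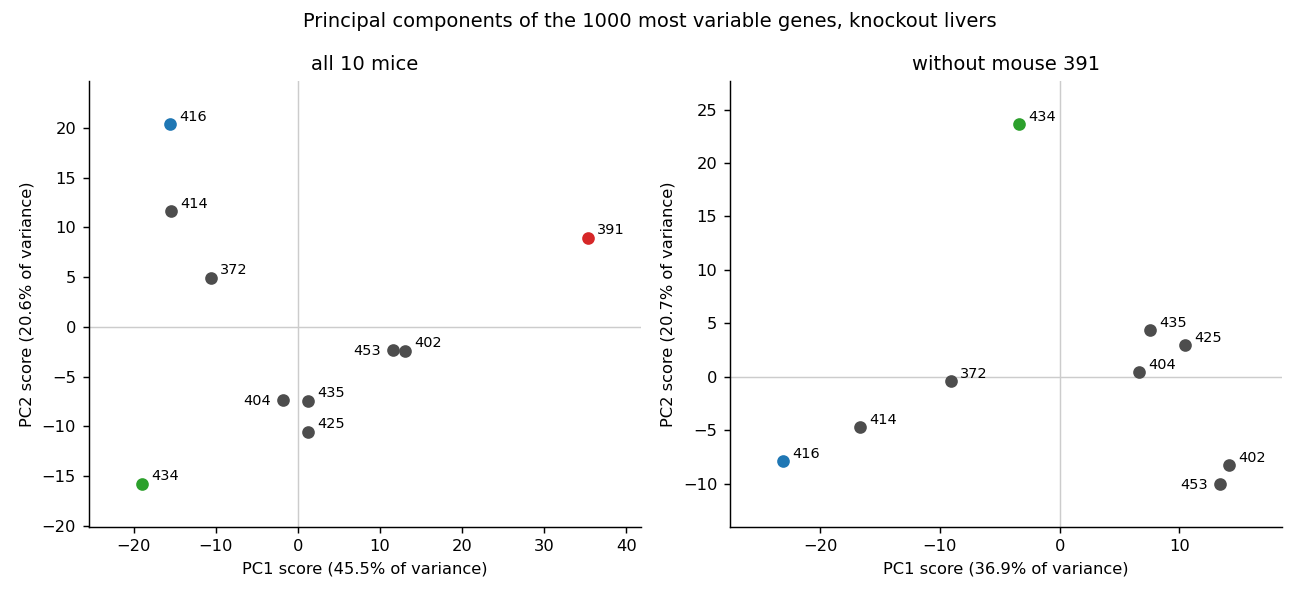
Scores of the knockout livers on the first (x axis) and second (y axis) principal components of the 1000 most variable genes, with all 10 mice (left) and without KO_391 (right), 1 labelled point per mouse. On the left KO_391 stands at 35.3 on the first component, beyond the range of -19.0 to 13.03 of the others, and on the right KO_416 and KO_434 mark the ends of the first and second components.

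Because KO_391 was set apart beforehand as the intermediate animal, its distance from the others is in part that choice restated. KO_391 differed from the other 9 over much of the transcriptome. It was the highest of the 10 mice for 22.9% of the 12742 genes and the lowest for 19.0%. KO_416 was the highest for 14.7% and the lowest for 15.3%, and KO_434 for 13.1% and 13.4%. A value at least 2-fold from the median of the other 9 mice was found for 589 genes in KO_391, 373 in KO_416 and 319 in KO_434, and for 116 to 217 in each of the others. Of 23 lists with at least 3 entered genes, KO_391 was the lowest mouse in 10 and the highest in 6. Its level lay inside the range of the WT mice in 11 of the 23. Among these were the Mup list (11.19 against 9.22 to 12.77 in WT), the stress response list (3.10 against 2.79 to 3.26) and the male-biased list (8.26 against 8.18 to 9.21). For each of these 3 lists no other KO mouse lay inside the WT range, whereas in the other 8 lists 2 to 9 KO mice did, KO_391 among them. The interferon response list went the other way, with KO_391 (2.73) below the WT range of 2.86 to 4.09 and the other 9 KO mice inside it. The lipogenesis (7.08 against 5.97 to 6.83), macrophage (3.31 against 2.29 to 3.04) and pericentral lists (6.96 against 7.05 to 7.81) of KO_391 lay outside it. KO_391 was therefore intermediate for some lists, within the WT range for others, and like the other KO mice for Hsd17b12 and for the PPAR-alpha target and lipid droplet lists.

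To find which other genes moved with each programme, every gene outside the list was fitted against the list's mean level over the 10 KO mice. The test was edgeR's quasi-likelihood test on raw counts with Benjamini-Hochberg adjustment over all genes fitted, and a gene was called at an adjusted p under 0.05. A slope is the log2 change per SD of the list's level, with the SD taken anew over the mice fitted. Members of a list are regulated together and were measured in the same mice. Counts of members that were called or share a sign are therefore not counts of independent observations. KO_391 lies at an end of every programme. Without it, all calls for lipogenesis and macrophage were lost, as were all but 1 of 1001 for the stress response and all but 3 of 295 for the Mup genes, while the cell cycle kept 188 of 377. Every called gene of the 5 fits kept the sign of its slope without KO_391. These genes were chosen by their calls in fits that held the same other mice, so a kept sign was largely fixed by that choice. The median absolute slope of the called genes went from 0.43 to 0.33 for lipogenesis, from 0.36 to 0.30 for macrophage, from 0.37 to 0.34 for the cell cycle, from 0.27 to 0.17 for the stress response and from 0.37 to 0.22 for the Mup genes.

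**Figure D4:**
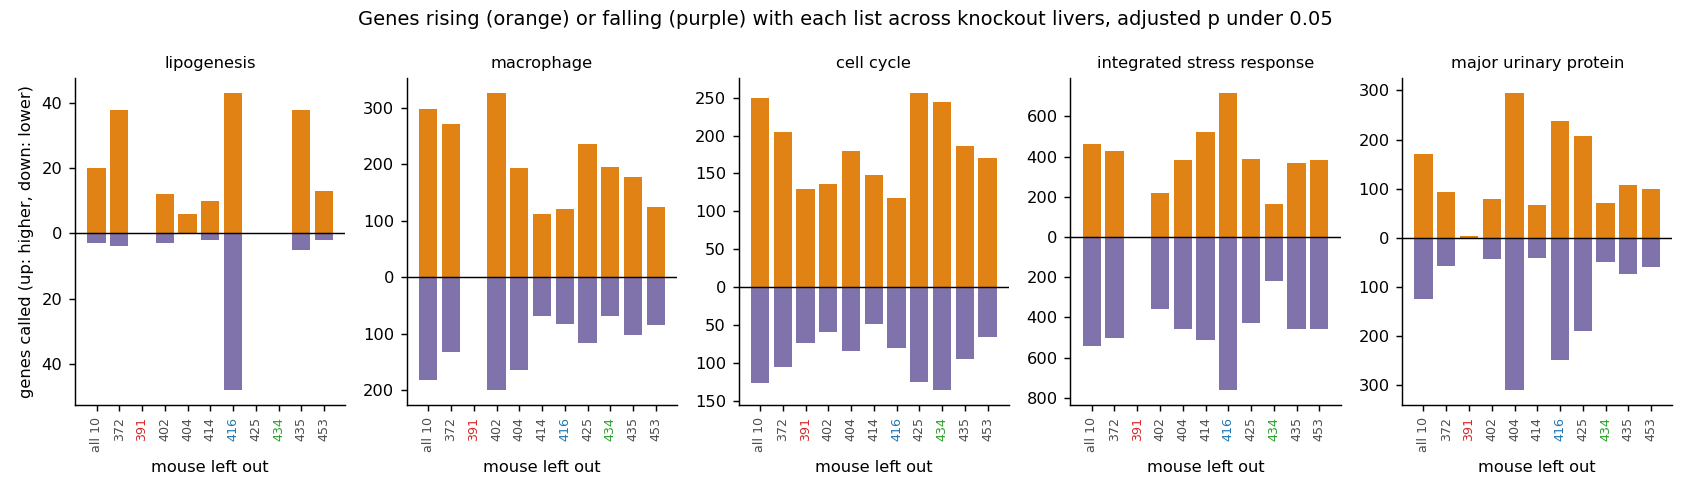
Number of genes whose level rose (orange, upward) or fell (purple, downward) with the mean level of each of 5 gene lists across the knockout livers, with all 10 mice and with each mouse left out in turn. Empty places are counts of 0, as for lipogenesis without KO_391, KO_425 or KO_434, and the cell cycle panel has at least 195 called genes, both directions added, for every set of mice.

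With the lipogenesis list 20 genes rose (0.157% of 12722) and 3 fell (0.0236%). Of 21 cholesterol synthesis genes 3 rose with it: Hmgcs1 (slope 0.52), Mvd (0.52) and Insig1 (0.48), known targets of the SREBP transcription factors. The median slope of that list was 0.25, against -0.01 over all genes, and 0.24 without KO_391, with 21 of 21 slopes above 0 in both fits. These slopes are not independent, because the genes share regulation and both fits hold largely the same mice. Without KO_391, KO_425 or KO_434 no gene was called by edgeR's quasi-likelihood test. Without KO_391, 1439 genes still had an unadjusted p under 0.05. With all 10 mice DESeq2 called 307 genes higher and 138 lower.

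With the macrophage list 298 genes rose (2.34% of 12715) and 183 fell (1.44%). They included 15 of 34 cell cycle genes, all upward, among them Ccnb1 (slope 1.18), Plk1 (1.19), Cdc20 (1.06) and Mki67 (0.89). The median slope of the cell cycle list was 0.82, against -0.00 over all genes, and 0.71 without KO_391, with 32 of 34 slopes above 0 there. Downward were 4 of 20 Mup genes, near-identical copies whose calls are not independent. So were 5 of 15 male-biased genes such as Hsd3b5 (-2.09) and Slco1a1 (-0.81), and 4 of 11 pericentral genes such as Oat (-0.86) and Cyp2e1 (-0.66). Of stellate and fibroblast markers 1 of 8 rose, Col1a2 (0.38), and of sinusoidal endothelial markers 1 of 7, Lyve1 (0.32). Without KO_391 no gene was called by edgeR's quasi-likelihood test, although 1773 had an unadjusted p under 0.05 and the smallest adjusted p was 0.0517. With all 10 mice DESeq2 called 674 genes higher and 485 lower. Scaling by library size instead of TMM factors changed the split to 488 higher and 114 lower, with 23 of 34 cell cycle genes, 4 of 8 stellate and fibroblast markers and 2 of 7 sinusoidal endothelial markers higher.

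With the integrated stress response list 461 genes rose (3.63% of 12717) and 540 fell (4.25%). Of 20 Mup genes 17 fell, with slopes such as -1.63 for Mup1 and -1.73 for Mup17. They are near-identical copies, so their calls are not independent. The median slope of the Mup list was -1.20 with all mice and -0.63 without KO_391, against 0.00 and -0.00 over all genes. Of 34 cell cycle genes 15 rose and none fell, including Ccnb1 (1.32), Ube2c (1.16) and Top2a (0.89), and of 27 macrophage genes 7 rose, including Lgals3 (1.05) and Mmp12 (0.65). Downward were 5 of 15 male-biased genes, among them Selenbp2 (-0.97) and Cyp7b1 (-0.91), and 3 of 11 pericentral genes. Upward were 3 of 18 lipid droplet genes, including Cidec (0.71), which fuses lipid droplets, and Plin2 (0.35), which coats them. The list as a whole had a median slope of -0.05, or 0.02 with library size scaling, and 7 of 18 slopes above 0. Without KO_391 the call that remained was Sprr1a, a small proline-rich protein of stressed epithelia. It had 4.52 in KO_391, 36.5 at the median and 73.5 in KO_416, and its slope was 1.17 ± 0.08 (SE, edgeR adjusted p = 0.000146) with all mice and 0.74 ± 0.08 (adjusted p = 0.0237) without KO_391. Library size scaling changed the split to 1486 higher and 234 lower, with 17 of 20 Mup genes lower as before, but 26 of 34 cell cycle genes and 10 of 27 macrophage genes higher. DESeq2 called 932 higher and 977 lower.

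With the Mup list 171 genes rose (1.34% of 12722) and 124 fell (0.975%). Of 15 male-biased genes 10 rose and none fell, including Hsd3b5 (slope 1.92), Selenbp2 (1.26), Elovl3 (1.07) and Slco1a1 (0.95). The median slope of the male-biased list was 0.55, against -0.00 over all genes. Downward were 3 of 25 stress response genes, Asns, Vldlr and Aldh1l2, and 1 of 5 female-biased genes, Cyp2a4 (-1.64). Without KO_391 there were 3 genes that rose (0.0236%), and all 3 were male-biased list members. Cyp7b1, an oxysterol hydroxylase, had 15.8 in KO_434, 30.8 at the median and 204 in KO_391, and its slope without KO_391 was 0.61 ± 0.07 (SE, edgeR adjusted p = 0.0101). Cyp2d9, a male-specific steroid hydroxylase, had 348 in KO_434, 608 at the median and 1408 in KO_391, and a slope of 0.52 ± 0.05 (edgeR adjusted p = 0.00898). Selenbp2 had a slope of 1.00 ± 0.12 (edgeR adjusted p = 0.0429). Library size scaling changed the split to 95 higher and 419 lower, with the male-biased list still at 10 of 15 higher and 4 of 25 stress response genes lower. DESeq2 called 541 higher and 578 lower.

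Of the 5 fits, that of the cell cycle list had the most calls in common with and without KO_391. Only members of the list were left out of this fit. Other genes of cell division, such as the spindle and cleavage furrow genes named below, stayed in. That they rose with the list was thus largely fixed in advance. With all mice 250 genes rose (1.97% of 12708) and 127 fell (0.999%), and without KO_391 129 rose (1.02%) and 74 fell (0.582%). In both fits 126 genes rose and 62 fell. The number called without 1 mouse lay between 195 (without KO_402) and 381 (without KO_425). Without KO_416, the highest mouse, 198 genes were called. Of these, 112 were among the 377 called with all mice, fewer than when any other mouse was left out. The calls of this fit thus rested more on KO_416 than on KO_391. The 4 rising genes of smallest adjusted p named were Hmmr, Knstrn, Anln and Stmn1. Hmmr, a spindle assembly protein, had 1.01 in KO_402, 2.51 at the median and 13.96 in KO_416. Its slope was 1.16 ± 0.07 (SE, edgeR adjusted p = 2.67e-05) with all mice and 1.14 ± 0.08 (adjusted p = 8.22e-05) without KO_391. Knstrn, a spindle protein, had a slope of 1.08 ± 0.08, Anln, an actin-binding protein of the cleavage furrow, 1.02 ± 0.07, and Stmn1, a microtubule regulator, 0.79 ± 0.06, each with an edgeR adjusted p of 3.44e-05. TTTGAA was present in 47 of the 94 promoters matched among the 126 rising genes (50.0%), and in 5 of 53 matched among the 62 falling genes (9.43%). The share over the promoters of 9880 entered genes was 14.6%. Because other genes of cell division stayed in the fit, the share among rising genes is not separate support for it.

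The 4 falling genes of smallest adjusted p named for the cell cycle fit were Cyp8b1, Rarres2, Atg7 and Cyp2c50. Cyp8b1, the sterol 12-alpha-hydroxylase of bile acid synthesis, had 112 in KO_416, 343 at the median and 663 in KO_391, with a slope of -0.70 ± 0.08 (SE, edgeR adjusted p = 0.000723) and -0.64 ± 0.08 (adjusted p = 0.00238) without KO_391. Cyp2c50, a cytochrome P450 with near-identical paralogs, had 19.7 in KO_416, 117 at the median and 380 in KO_391, with a slope of -1.13 ± 0.14 (edgeR adjusted p = 0.0016). Rarres2, the chemokine chemerin, whose exons overlap those of Lrrc61, had a slope of -0.33 ± 0.04, and Atg7, an enzyme of autophagy, -0.28 ± 0.04. Of 11 pericentral genes 6 fell and none rose: Slc1a2 (-1.75), Oat (-0.92), Glul (-0.69), Cyp2e1 (-0.69), Lhpp (-0.60) and Cyp1a2 (-0.45). Without KO_391 the same genes except Glul were called. Cyp2e1, an ethanol-oxidising cytochrome, had 622 in KO_416, 1753 at the median and 3779 in KO_391. The median slope of the pericentral list was -0.50 with all mice and -0.52 without KO_391, against -0.00 over all genes in each fit.

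**Figure D5:**
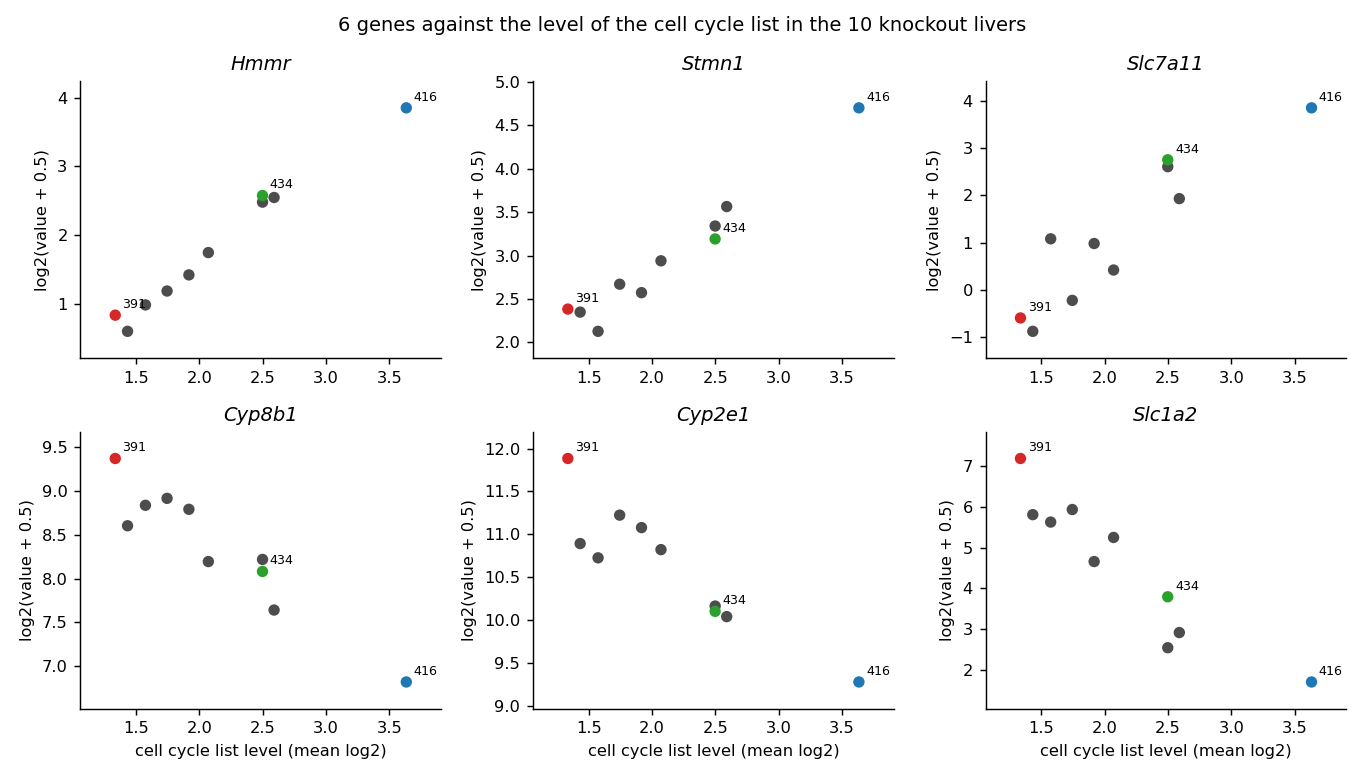
Log2(normalized value + 0.5) of 6 genes (y axes) against the mean log2 level of the 34 cell cycle genes (x axis) in the 10 knockout livers, 1 point per mouse, with KO_391 (red), KO_416 (blue) and KO_434 (green) labelled. Hmmr, Stmn1 and Slc7a11 are highest in KO_416 (3.63 on the x axis) and low in KO_391 (1.33) and KO_402 (1.43), and Cyp8b1, Cyp2e1 and Slc1a2 are lowest in KO_416 and highest in KO_391.

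Stress and macrophage genes also rose with the cell cycle list. Of 25 stress response genes 5 rose with all mice, Slc7a11 (slope 1.74), Fgf21 (1.18), Aldh1l2 (0.97), Asns (0.60) and Pck2 (0.60), while Shmt2 fell (-0.19). Without KO_391 6 of 25 rose, these 5 among them. Of 27 macrophage genes 7 rose with all mice, including Gpnmb (1.15), Lgals3 (1.10) and Mmp12 (0.68), and 2 without KO_391, Cd68 (0.36) and Mmp12 (0.59). Of 24 PPAR-alpha targets 4 rose, of which Acot1, Acot2 and Acot3 are neighbouring paralogs that can share fragments. Of 8 stellate and fibroblast markers 3 rose, the collagens Col1a1 (0.55), Col1a2 (0.38) and Col3a1 (0.49), and none was called without KO_391, where their slopes were 0.49, 0.34 and 0.41. The summed level of those 8 markers ranged from 291 to 539 over the mice, and the part of this in the cell cycle result was not tested. Library size scaling changed the split of all calls to 359 higher and 61 lower, with the pericentral genes at 6 of 11 lower as before. DESeq2 called 543 higher and 458 lower.

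The levels of the programmes themselves were compared over the 10 mice in 20 relations by permutation tests with 100000 resamples, two-sided, with Benjamini-Hochberg adjustment over the 20. None passed, and the lowest adjusted p was 0.0798. That value was shared by 4 relations. The macrophage list had an r of 0.79 with the cell cycle list (rho 0.76, permutation p = 0.00551) and 0.73 with the stress response list (rho 0.72, permutation p = 0.0131). The cell cycle list had an r of 0.75 with the stress response list (rho 0.73, permutation p = 0.016). The stress response list had an r of -0.79 with the Mup list (rho -0.61, permutation p = 0.0082). Leaving out KO_391 and the other mouse farthest from the median of the first list gave r of 0.64 and 0.45 for the macrophage list with cell cycle and stress response, 0.64 for cell cycle with stress response, and -0.33 for stress response with Mup. The last relation thus rested in large part on KO_391 and KO_402. Without KO_391 alone, in exact permutation tests, the 4 values of r were 0.74, 0.59, 0.74 and -0.53, and the lowest adjusted p of the 20 was 0.25. Without KO_402, in exact permutation tests, the macrophage list passed with the cell cycle (r 0.85) and stress response lists (r 0.79), both at an adjusted p of 0.0214, and without KO_416 the cell cycle list passed with the Mup list (r -0.88, adjusted exact permutation p = 0.0255). Scaled by library size, all 4 passed, with adjusted p-values of 0.0383, 0.0383, 0.0462 and 0.0462.

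The relations of the lipogenesis list changed sign with the mice left out for 3 of the 4 other lists. Its r with the macrophage list was 0.17 and -0.24 without KO_391, and with the stress response list 0.39 and -0.16. With the cell cycle list it was -0.11, and 0.52 without KO_416. With the Mup list it was -0.60 (adjusted permutation p = 0.203) and -0.26 without KO_391. KO_391 and KO_416, at opposite ends of the macrophage, cell cycle and stress response lists, were the 2 lowest mice for lipogenesis.

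In the fit against the level of the remaining Hsd17b12 RNA no gene of 12741 was called by edgeR's quasi-likelihood test, while 1522 had an unadjusted p under 0.05, and DESeq2 called 70 higher and 132 lower. Its r with the 5 programmes lay between -0.47 and 0.16, with adjusted permutation p-values of 0.385 or more. Against the number of assigned fragments no gene was called by edgeR's quasi-likelihood test, 1416 had an unadjusted p under 0.05 and DESeq2 called 156. Its r with the programmes lay between -0.47 and 0.05.

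The spread of each gene among KO mice was compared with that among WT mice by limma on absolute deviations from the group mean, adjusted over 12742 genes. Each deviation was scaled up slightly for the number of mice in its group, and the deviations given below are scaled. The spread was larger in KO for 31 genes (0.243%) and larger in WT for 13 (0.102%). Of the 31, 24 had a mean under 1 in WT. They passed the filter on low values through the KO mice alone, and a WT spread near 0 was fixed by their level, so their calls say nothing of a difference in spread. The genes of smallest adjusted p, Cdh17, Krt20, Cldn4 and Slc7a11 among them, were of this kind. The other 7 had a mean of at least 1 in both groups. Slc1a2 had a mean scaled absolute deviation of 1.52 in KO and 0.26 in WT (limma adjusted p = 0.0156), and Serpina1e of 1.30 and 0.25 (limma adjusted p = 0.0269). Oat (0.76 and 0.16, limma adjusted p = 0.0499) and Slco1a1 (0.80 and 0.11, limma adjusted p = 0.0265) were also among the 7, and were named after their values were seen. Of the 131 variable genes 39 had a mean under 1 in WT and so lie near the pseudocount there. Among genes with a mean of at least 10 in KO no gene differed in spread by limma, while 1098 had an unadjusted p under 0.05. With a pseudocount of 0.1 only 3 genes were more variable in KO.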

How the data were processed

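Total RNA of the left lateral liver lobe of 10 KO and 10 WT mice was sequenced on an Illumina Novaseq. The authors deposited raw counts of fragments per gene, a normalized signal and RPKM values. Rsubread and RefSeq mm10 annotation appear in the file names, HISAT2 2.0.5 and DESeq2 in the submitters' processing notes. Whether counting used strand is not stated in these sources, so overlapping and antisense genes are uncertain. Per the deposited statistics, the authors counted multi-mapping fragments too. The deposited normalized signal equalled CPM over TMM-scaled library sizes, to within 9.99e-15 of each value, and the deposited RPKM values, that signal per kilobase, were not used for tests. Of the deposited fragment statistics 18 columns were not used. Genes left out by the mean of at least 1 held 0.163% of KO counts.

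Gene lists (29), the members and the tests were chosen with earlier results of these data known. Fits used edgeR 4.0.16, limma 3.58.1 and DESeq2 1.42.0 in R 4.3.3, with Benjamini-Hochberg adjustment at 0.05. The edgeR and limma fits were also run on simulated data in which each gene was drawn independently. That run does not cover genes that vary together or a list level computed from the same libraries. Relations used permutation tests in Python 3.11.15. Nothing says that the mice came from separate litters. The p-values treat each mouse as independent, so they may be too small if mice share litters, and they speak only for these mice. Named were Hsd17b12, the 25 genes of largest SD, the next 10 without KO_391, the 3 of largest SD per list, up to 4 genes per direction of each fit that were also called without KO_391, and 8 genes of larger spread in KO. Predicted genes and pseudogenes were left out, and not every gene of the rule is described.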

Additional observations from a re-analysis of the deposited data

Results flagged for a closer look

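The values of 125 groups of 10 KO mice (gene lists, library measures and named genes) were searched for a highest or lowest mouse whose gap to the next was large against the whole range, by Dixon's critical value for 10 values. Chance flags about 1 in 20 groups chosen without regard to their values. Most of these groups were genes named for a large SD, so that rate does not apply to the 9 of 125 found, and 3 of the 6 genes among them are Mup copies and not independent. KO_391 was that mouse in 8 of them. It had the highest log2 values of Mup17 (11.38, next 7.99), Mup12 (11.49, next 8.33), Mup8 (11.69, next 8.88) and Cyp7b1 (7.67, next 5.77), and the lowest of Elovl7 (0.86, next 2.73) and Gpx2 (2.97, next 4.26). Its library also had the highest share of multi-mapping fragments (8.46%, next 4.02%) and of fragments that matched more than 1 gene (6.26%, next 3.92%). The Mup genes are near-identical copies, and the part of these shares in the Mup values was not tested. KO_434 had the highest level of the immediate early list (5.62, next 4.75).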

How the results depend on the processing

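No paired analysis was possible because KO and WT mice share no replicate number and the 10 KO mice are 1 group. The number of genes with an SD of at least 1 (131) was 97 to 148 with 1 mouse left out, 208 with a pseudocount of 0.1 and 76 among genes with a mean of at least 10. The first component (45.5%) held 36.9% (without KO_391) to 50.4% (without KO_416). Spread was larger in KO for 31 genes: 24 to 40 with 1 mouse left out, 3 and 65 with pseudocounts of 0.1 and 1, 61 by library size and 0 at a mean of at least 10. It was larger in WT for 13: 1 to 14, then 0, 22, 51 and 0.

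Called genes with 1 mouse left out were 0 to 91 for lipogenesis (0 without KO_391, KO_425 or KO_434, and 91 without KO_416), 0 to 526 for macrophage (181 without KO_414, 204 without KO_416 and 209 without KO_453), 195 to 381 for the cell cycle, 1 to 1476 for the stress response (380 without KO_434) and 3 to 603 for Mup (107 without KO_414). They were 0 to 4 for Hsd17b12 (4 without KO_425) and 0 to 1 for assigned fragments. In the order lipogenesis, macrophage, cell cycle, stress response and Mup, DESeq2 called 445, 1159, 1001, 1909 and 1119, and it called 202 with Hsd17b12 and 156 with assigned fragments. Library size scaling gave 14 for lipogenesis, 1720 for the stress response and 514 for Mup. A mean of at least 10 gave 165 for macrophage, 133 for the cell cycle and 189 for Mup. Means of z-scores gave 10 for lipogenesis and 90 for macrophage, and no filter gave 1 with Hsd17b12. The cause of these differences was not tested.

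Among relations, r with 1 mouse left out was 0.73 to 0.85 for macrophage with cell cycle, 0.59 to 0.79 for macrophage with stress response, -0.88 to -0.57 for cell cycle with Mup, -0.24 to 0.57 for lipogenesis with macrophage, -0.49 to 0.52 with cell cycle and -0.16 to 0.79 with stress response. For Hsd17b12 it was -0.20 to 0.58 with lipogenesis, -0.61 to 0.076 with cell cycle and -0.25 to 0.32 with Mup. For assigned fragments it was -0.36 to 0.011 with lipogenesis, -0.14 to 0.11 with cell cycle and -0.28 to 0.19 with Mup. By library size, 5 relations passed: macrophage with cell cycle (0.82), stress response (0.80) and Mup (-0.75), cell cycle with stress response (0.78) and stress response with Mup (-0.80). Without KO_402, macrophage with cell cycle (0.85) and with stress response (0.79) passed, both at an adjusted permutation p of 0.0214, and without KO_416 cell cycle with Mup (-0.88, adjusted p = 0.0255). With library size scaling the sign changed for lipogenesis with cell cycle (0.10) and for Hsd17b12 with macrophage (0.43), cell cycle (0.33), stress response (0.48) and Mup (-0.72). All 188 alternatives for the slopes of the 12 named fit genes stayed past the threshold with their sign, and 1539 of 1619 for the SDs of named genes stayed on their side of 1. The fit genes were named for small adjusted p-values with and without KO_391, and many others for a large SD. Both counts were thus in large part fixed by that choice and say little of other genes. Library size scaling moved the median slope over all genes by at most 0.07.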

Other observations

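The 3 highest mice of a variable gene were most often KO_391, KO_402 and KO_453 (19 of 131 genes), then KO_414, KO_416 and KO_434 (17 genes) and KO_372, KO_414 and KO_416 (11 genes). Most of the 19 genes were Mup genes, Mup1, Mup7 and Mup17 among them, which are near-identical copies and not independent.

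The mean Spearman correlation of a KO mouse with the other 9, over 12742 genes that are not independent replicates, was lowest in KO_391 (0.968), followed by KO_416 (0.973) and KO_434 (0.975). In the other 7 mice it lay between 0.98 (KO_414) and 0.982 (KO_372).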
